A study of Mus musculus with 16 samples.

Results

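Fgfr1, Fgfr2 and Fgfr3, receptors for fibroblast growth factors, and Egfr, Erbb2, Erbb3 and Erbb4, the ErbB receptors for epidermal growth factor and the neuregulins, were followed across 16 arrays of sorted mouse parvalbumin cells. Members were taken as every transcript cluster of the array annotated with the symbol of 1 of these 7 genes. Where a gene had several clusters, the 1 used was to be selected on its mean level over all arrays, but each gene had a single cluster. The family itself was chosen by its role with earlier results of all 5 comparisons known, so the values below describe these genes and are not independent evidence for them. The 7 genes were among 30743 genes with a cluster of their own. Of the 7, 6 were among the 20495 genes that entered the tests. Erbb2 lay under the filter on low values, a mean level of 5.53 on the log2 scale.

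Both families are receptor tyrosine kinases that span the cell membrane. Secreted Fgf ligands bind Fgf receptors together with heparan sulphate or Klotho proteins, and ErbB ligands are cut from membrane precursors by proteases. The bound receptors pair and add phosphate to each other, and adaptors then pass the signal to the Ras-MAP kinase and PI3 kinase pathways, which induce both early response genes and inhibitors of the pathway. Erbb2 has no known ligand of its own and Erbb3 has little kinase activity, so these members act chiefly in pairs with other ErbB receptors. In forebrain, Erbb4 is the neuregulin receptor of many parvalbumin interneurons, Fgfr3 is known from astrocytes, Fgfr2 and Erbb3 from the oligodendrocyte lineage, and Egfr from glial progenitors.

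The cells carried the red fluorescent protein tdTomato and were sorted by fluorescence from dorsal striatum or from motor and somatosensory cortex of C57BL/6J mice aged 30 days, all labelled male. There were 4 arrays in each of 4 groups: PVCre/+; tdTomato/+ striatum, PVCre/+; tdTomato/+ cortex, PV-tdTomato/+ striatum and PV-tdTomato/+ cortex. In the first genotype, called PVCre below, Cre recombinase from parvalbumin cells switches the reporter on, and the switch is lasting. In the second, PV-tdTomato, the reporter is made without Cre. Each array measured RNA from 2000 cells pooled from 2 to 4 mice, and the deposited RMA levels are log2 values, a summary of probe brightness after background correction and normalization. Levels of different genes come from different probes and were not set against each other.

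The region comparisons, the line comparisons and the interaction share arrays, so they do not support one another. A difference was called where limma's adjusted p over all tested genes was under 0.05. In the cortex of the PVCre line, 4 members were lower than in PV-tdTomato, Fgfr1, Fgfr3, Egfr and Erbb4, in a comparison in which 34.4% of all tested genes were lower. For 3 of these RefSeq's promoter table (GRCm38.p6) held an entry, and the 250 bases before the start are given here 5′ to 3′ on the gene's strand. They are shown as members called in the line comparison in cortex, and Fgfr1, also called there, had no entry. Egfr lies on the plus strand at chr11:16751953-16752202, Erbb4 on the minus strand at chr1:69108060-69108309 and Fgfr3 on the plus strand at chr5:33721474-33721723, the upstream of its 2 entries. Capitals mark GC boxes, the letters GGGCGG on either strand.
Egfr: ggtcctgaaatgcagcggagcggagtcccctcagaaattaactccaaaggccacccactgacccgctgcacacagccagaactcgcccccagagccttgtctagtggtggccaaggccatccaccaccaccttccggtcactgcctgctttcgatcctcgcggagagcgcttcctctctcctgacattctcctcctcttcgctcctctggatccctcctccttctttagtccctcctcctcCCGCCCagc
Erbb4: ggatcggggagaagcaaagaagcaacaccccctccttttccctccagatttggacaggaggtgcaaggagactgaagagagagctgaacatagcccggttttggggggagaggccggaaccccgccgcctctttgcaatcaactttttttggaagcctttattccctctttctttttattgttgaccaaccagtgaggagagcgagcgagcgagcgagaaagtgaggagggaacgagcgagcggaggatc
Fgfr3: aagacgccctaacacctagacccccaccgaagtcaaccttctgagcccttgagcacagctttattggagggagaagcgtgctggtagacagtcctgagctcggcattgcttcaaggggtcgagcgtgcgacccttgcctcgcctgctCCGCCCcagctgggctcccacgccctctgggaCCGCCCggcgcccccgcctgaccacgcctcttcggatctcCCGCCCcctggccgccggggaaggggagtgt

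The Egfr window held 1 GC box close to the start, the Fgfr3 window shown 3 and the Erbb4 window 0. GC boxes occurred in 32.7% of all 32851 promoter windows of the same length. The share of G and C was 60.8% in Egfr, 54.0% in Erbb4 and 66.8% in Fgfr3, against a median of 52.4% over all windows. The TATA box letters TATAAA, found on either strand in 12.4% of windows, were in none of the 3, and CCAAT, found in 33.8%, was in the Fgfr3 window shown, apart from its GC boxes. The other Fgfr3 window, downstream and not shown, held 2 GC boxes, 0 CCAAT and 72.8% G and C, so these counts depend on the start used. These are matches of letters, and no binding was measured.

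Some properties of the arrays touch every value below. The 23 background probe sets of the array had mean levels of 2.95 to 6.1, so levels near or under 6.1 were close to background. Pvalb, the gene for parvalbumin, lay at 6.69 to 8.40 in 6 arrays, namely PVCre cortex replicates 2 and 4 and PV-tdTomato replicates 3 and 4 of either region. It lay at 10.20 to 12.48 in the other 10. Gad1, a GABA synthesis gene, was at 8.88 and 7.40 in those PVCre cortex arrays and at 12.09 to 12.77 in those PV-tdTomato arrays. Fits without the 6 arrays lowest in Pvalb keep all of PVCre striatum but only replicates 1 and 3 of PVCre cortex. Of PV-tdTomato they keep only replicates 1 and 2 of either region, so calls gained or lost in these fits rest on few arrays. The positive control probe sets lay 3.08 to 3.93 above the negative ones in PVCre arrays and 4.16 to 4.85 in PV-tdTomato arrays, with no overlap. Xist, which is normally expressed in females, was above 13 in 8 arrays and under 7 in the other 8, although all mice were labelled male. The high arrays were 6 of 8 in PVCre and 2 of 8 in PV-tdTomato, so Xist was uneven between the lines compared below. No batch is labelled, and a batch shared by all arrays of a line and the line itself cannot be told apart.

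**Figure D1:**
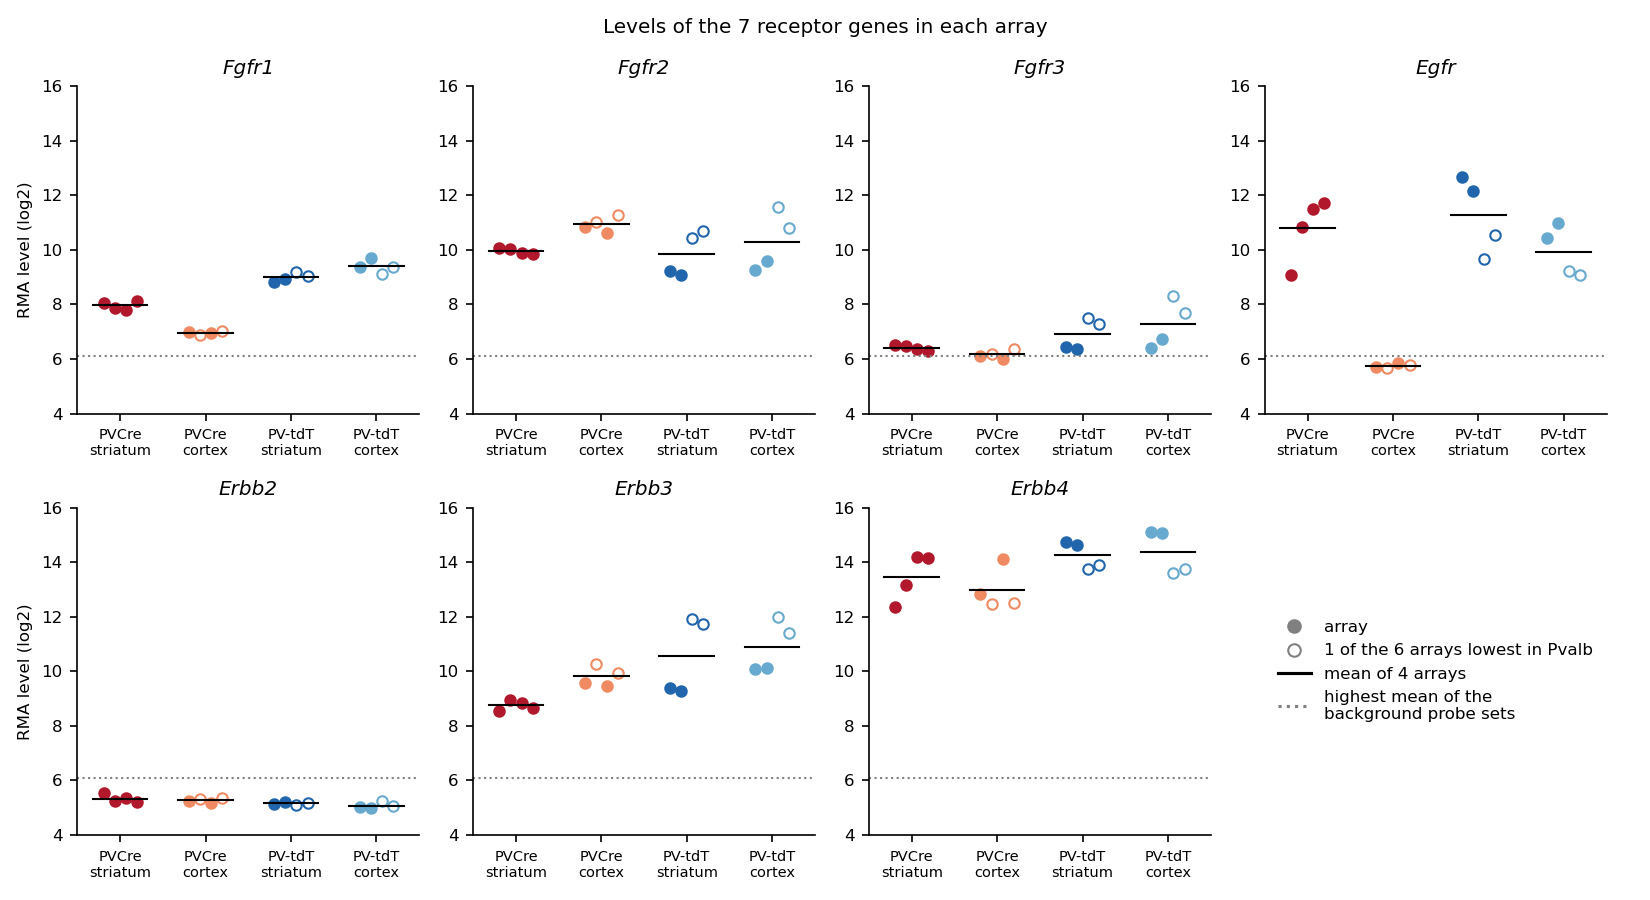
Level of each receptor gene (log2 RMA, y axis) in each array of the 4 groups (x axis), with the mean of 4 arrays as a bar and the highest background mean, 6.1, as a dotted line; open circles are the 6 arrays lowest in Pvalb. Egfr is at background in all 4 PVCre cortex arrays, Fgfr1 is at 6.87 to 7.04 there, and Erbb2 is under the dotted line in every array.

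Fgfr1, the Fgf receptor most widely found in neurons, separated the lines in both regions, with SDs of 0.07 to 0.23 within the groups. Its levels were 8.06, 7.85, 7.79 and 8.14 in PVCre striatum and 6.99, 6.87, 6.96 and 7.04 in PVCre cortex. They were 8.81, 8.93, 9.18 and 9.05 in PV-tdTomato striatum and 9.38, 9.69, 9.11 and 9.37 in PV-tdTomato cortex. All PVCre striatal arrays lay above all PVCre cortical ones, all PVCre arrays lay below all PV-tdTomato ones, and the PV-tdTomato regions overlapped. Fgfr1 averaged 7.96 ± 0.17 (SD, n = 4) in PVCre striatum and 6.96 ± 0.07 in PVCre cortex, and 8.99 ± 0.16 in PV-tdTomato striatum and 9.39 ± 0.23 in PV-tdTomato cortex. From the top the order was PV-tdTomato cortex, PV-tdTomato striatum, PVCre striatum, PVCre cortex, and only the first pair of neighbours overlapped. In these bulk samples, fewer cells with a transcript and less of it per cell cannot be told apart.

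Within PVCre, Fgfr1 was higher in striatum than in cortex by 1.00 ± 0.13 (SE) on the log2 scale, or 2.00-fold, with a limma adjusted p of 0.000265. In PV-tdTomato the difference was -0.39 ± 0.13, with an adjusted p of 0.229 and an unadjusted p of 0.0089. The region difference in PVCre exceeded that in PV-tdTomato by 1.39 ± 0.18 (interaction, adjusted p = 0.00641). Between the lines, Fgfr1 was lower in PVCre, with differences of -1.03 ± 0.13 in striatum (adjusted p = 1.83e-05) and -2.42 ± 0.13 in cortex (5.36-fold, adjusted p = 4.07e-08). The median of all genes in these line comparisons was -0.22 in either region, and relative to it Fgfr1 was at -0.81 in striatum and -2.20 in cortex. Without the 6 arrays lowest in Pvalb, Fgfr1 differed between PVCre striatum and cortex by 0.99 ± 0.15 (adjusted p = 0.00916), and its interaction was 1.65 ± 0.22 (adjusted p = 0.0123). The 10 endothelial and pericyte markers moved with the region difference of Fgfr1 in PVCre, with 5 called higher in striatum and all 10 at an unadjusted p under 0.05. Their means were 7.44 to 9.81 in PVCre striatum and 6.20 to 6.64 in PVCre cortex, and 6.17 to 6.63 in PV-tdTomato striatum and 5.78 to 6.81 in PV-tdTomato cortex. For the interaction their median was 1.46, with 0 called by limma and 7 of 10 at an unadjusted p under 0.05. Between the lines in striatum 7 of the 10 were higher and 1 lower in PVCre, where Fgfr1 was lower. Their part in the Fgfr1 values was not tested.

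Fgfr2, whose splice forms bind different sets of Fgf ligands, separated the regions of PVCre without passing the test. Its levels were 10.05, 10.03, 9.88 and 9.84 in PVCre striatum and 10.85, 11.01, 10.61 and 11.27 in PVCre cortex. In PV-tdTomato they were 9.22, 9.06, 10.43 and 10.70 in striatum and 9.25, 9.59, 11.57 and 10.78 in cortex. Striatal and cortical PVCre arrays did not overlap, whereas in PV-tdTomato replicates 1 and 2 of both regions were low and replicates 3 and 4 high. Fgfr2 averaged 9.95 ± 0.11 (SD, n = 4) in PVCre striatum and 10.94 ± 0.28 in PVCre cortex, and 9.85 ± 0.83 in PV-tdTomato striatum and 10.30 ± 1.07 in PV-tdTomato cortex. By the mean, PVCre cortex came first and PV-tdTomato striatum last, and each group overlapped the next.

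The Fgfr2 difference of striatum minus cortex in PVCre was -0.99 ± 0.45 (SE, adjusted p = 0.315), in a fit whose spread includes the split PV-tdTomato groups. Without the 6 arrays lowest in Pvalb it was -0.78 ± 0.14 (adjusted p = 0.0231). PVCre minus PV-tdTomato was 0.10 ± 0.45 in striatum (adjusted p = 0.873) and 0.64 ± 0.45 in cortex (adjusted p = 0.246), where the call was gained without PV-tdTomato cortex replicate 3 (1.06 ± 0.41, adjusted p = 0.0414). Without those 6 arrays, Fgfr2 was higher in PVCre by 0.81 ± 0.14 in striatum (adjusted p = 0.00173) and by 1.31 ± 0.17 in cortex (adjusted p = 5e-04). The mean level of 11 measured oligodendrocyte markers moved with Fgfr2 within each line: it was 14.30 to 14.57 in PVCre striatum and 14.93 to 15.33 in PVCre cortex. In PV-tdTomato it was 12.30 to 12.79 in replicates 1 and 2 and 14.37 to 14.92 in replicates 3 and 4. Between the lines the match was looser. PV-tdTomato striatum replicates 3 and 4, at 14.37 and 14.46, had the marker level of PVCre striatum but higher Fgfr2, at 10.43 and 10.7. Oligodendrocyte precursor markers, given below for Erbb3, split the PV-tdTomato replicates in the same way. The part of these cells in the Fgfr2 values was not tested.

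Fgfr3, an Fgf receptor also known from astrocytes, was close to background in most arrays. Its levels were 6.50, 6.46, 6.36 and 6.28 in PVCre striatum and 6.12, 6.18, 6.00 and 6.36 in PVCre cortex, against 6.45, 6.37, 7.49 and 7.28 in PV-tdTomato striatum and 6.40, 6.74, 8.29 and 7.68 in PV-tdTomato cortex. The 4 highest values were replicates 3 and 4 of the PV-tdTomato groups, and the lines did not overlap in cortex. Fgfr3 averaged 6.40 ± 0.10 (SD, n = 4) in PVCre striatum and 6.17 ± 0.15 in PVCre cortex, and 6.90 ± 0.57 in PV-tdTomato striatum and 7.28 ± 0.86 in PV-tdTomato cortex. The order from the top was that of Fgfr1, but each group overlapped the next.

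In cortex Fgfr3 was lower in PVCre, at -1.11 ± 0.35 (SE, adjusted p = 0.0145), and in striatum the difference was -0.50 ± 0.35 (adjusted p = 0.244). Without the 6 arrays lowest in Pvalb, the cortical difference was -0.51 ± 0.15 (adjusted p = 0.0247) and the striatal one -0.01 ± 0.13. The 10 astrocyte markers averaged 6.19 to 6.78 in PVCre cortex, against 6.66 and 6.62 in PV-tdTomato cortex replicates 1 and 2, while replicates 3 and 4 of that group were at 8.01 and 7.61. Of the 8 tested astrocyte markers, 0 were higher and 2 lower in PVCre cortex, against 19.2% and 34.4% of all tested genes. The count lower thus does not exceed that of all genes. Other lists also split PV-tdTomato cortex. There the 7 oligodendrocyte precursor markers averaged 10.12 and 10.4 in replicates 1 and 2, and 12.77 and 13.26 in 3 and 4. The 11 oligodendrocyte markers averaged 12.73 and 12.79, and 14.92 and 14.52. In PVCre cortex these 2 lists averaged 7.35 to 8.47 and 14.93 to 15.33. The part of any of these cells in the Fgfr3 values was not tested.

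Egfr, the receptor for epidermal growth factor, transforming growth factor alpha and heparin-binding EGF, showed the largest span of the 7 genes, 7.02 log2 units over the 16 arrays. Its levels were 9.08, 10.85, 11.51 and 11.72 in PVCre striatum and 5.69, 5.66, 5.85 and 5.79 in PVCre cortex. In PV-tdTomato they were 12.68, 12.17, 9.67 and 10.54 in striatum and 10.43, 10.97, 9.22 and 9.08 in cortex. PVCre cortex was at background in all 4 arrays, the other 12 arrays were at 9.08 or above, and the other 3 groups overlapped. The PVCre cortex arrays at background included replicates 1 and 3, in which Pvalb was at 10.56 and 12.48 and Gad1 at 11.63 and 13.66. Egfr averaged 10.79 ± 1.20 (SD, n = 4) in PVCre striatum and 5.75 ± 0.09 in PVCre cortex, and 11.27 ± 1.40 in PV-tdTomato striatum and 9.92 ± 0.92 in PV-tdTomato cortex. By the mean, PV-tdTomato striatum came first, followed by PVCre striatum and PV-tdTomato cortex.

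Within PVCre, Egfr was higher in striatum by 5.04 ± 0.67 (SE, adjusted p = 0.000325). Because the cortical level was within background, the fold is a lower bound, set against the highest background mean of 6.1: at least 25.8-fold higher in PVCre striatum. In PV-tdTomato the region difference was 1.34 ± 0.67 (95% interval -0.10 to 2.78, adjusted p = 0.695), and striatum was higher in all 4 same-numbered pairs. The interaction was 3.70 ± 0.95 with an adjusted p of 0.212, so it was not called. With the replicate number as a block it was 3.70 ± 0.57 (adjusted p = 0.0341). That block also joins the PVCre regions by number, and those arrays did not pass the check for pairs (r = -0.29 to 0.69). PVCre cortex was below PV-tdTomato cortex, at -4.18 ± 0.67 (adjusted p = 0.000148), or at least 14.2-fold lower, and -3.96 relative to the median of all genes. In striatum the lines differed by -0.48 ± 0.67 (adjusted p = 0.573), and by 0.04 after quantile normalization. Without the 6 arrays lowest in Pvalb, Egfr was higher in PVCre striatum than cortex by 5.02 ± 0.64 (adjusted p = 0.00485), and lower in PVCre cortex than PV-tdTomato cortex, at -4.93 ± 0.73 (adjusted p = 0.00105).

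Ependymal and vascular markers moved with the region in PVCre. All 5 tested ependymal markers were higher in striatum in either line, with means over the list of 11.30 to 12.98 in PVCre striatum and 6.29 to 6.96 in PVCre cortex, and 9.39 to 10.77 in PV-tdTomato striatum and 5.90 to 6.03 in PV-tdTomato cortex. Of 10 endothelial and pericyte markers, 5 were higher in PVCre striatum, as given for Fgfr1, and 1 was higher in PV-tdTomato striatum. Their highest mean, 9.81, was in PVCre striatum replicate 1, the array of that group lowest in Egfr. Of 6 striatal projection neuron markers, 3 were higher in striatum in either line. In PV-tdTomato cortex, ependymal markers were at background while Egfr was at 9.08 to 10.97. The 10 parvalbumin and GABAergic interneuron markers averaged 8.5, 9.27, 9.76 and 9.47 in PVCre striatum. In PV-tdTomato they averaged 10.84, 10.82, 9.29 and 9.66 in striatum and 11.33, 10.85, 9.06 and 9.19 in cortex. Within each of these groups, arrays higher in this list were mostly higher in Egfr. In PVCre cortex the list ranged from 6.5 to 10.57 while Egfr stayed at background. The part of any of these cells in the Egfr values was not tested.

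Erbb2, the ErbB receptor without a ligand of its own, lay at background throughout. Its levels were 5.20 to 5.54 in PVCre striatum, 5.18 to 5.34 in PVCre cortex, 5.11 to 5.22 in PV-tdTomato striatum and 4.99 to 5.23 in PV-tdTomato cortex, under 6.1 in all 16 arrays. Every group overlapped the next, and the fit without a filter called Erbb2 in none of the 5 comparisons, with log2 differences of -0.03 to 0.20 and an adjusted p of at least 0.0685 (unadjusted 0.0372, between the lines in cortex). A level at background sets only an upper bound on Erbb2 in these pools.

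Erbb3, a neuregulin receptor that signals in pairs with its relatives, differed widely between the PV-tdTomato replicates. It was at 8.55, 8.94, 8.84 and 8.67 in PVCre striatum and 9.58, 10.26, 9.47 and 9.94 in PVCre cortex. In PV-tdTomato it was at 9.37, 9.29, 11.92 and 11.72 in striatum and 10.10, 10.12, 12 and 11.40 in cortex. Replicates 3 and 4 of both PV-tdTomato groups were the 4 highest arrays, all PVCre striatal arrays were below all others, and the regions of PV-tdTomato overlapped. Erbb3 averaged 8.75 ± 0.17 (SD, n = 4) in PVCre striatum and 9.81 ± 0.36 in PVCre cortex, and 10.58 ± 1.44 in PV-tdTomato striatum and 10.90 ± 0.95 in PV-tdTomato cortex, with the order from the top the reverse of this list.

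In striatum Erbb3 was lower in PVCre, at -1.83 ± 0.58 (SE, adjusted p = 0.0155), or -1.60 relative to the median of all genes. This call was lost after quantile normalization (-1.33 ± 0.64, adjusted p = 0.1), and without PV-tdTomato striatum replicate 3 (adjusted p = 0.0533) or 4 (adjusted p = 0.0553). Without the 6 arrays lowest in Pvalb the difference was smaller but had a smaller error, at -0.58 ± 0.13 in striatum (adjusted p = 0.00605) and -0.58 ± 0.15 in cortex (adjusted p = 0.0144). In cortex over all arrays it was -1.09 ± 0.58 (adjusted p = 0.124). Striatum minus cortex was -1.07 ± 0.58 in PVCre (adjusted p = 0.407), where the groups did not overlap, and -0.33 ± 0.58 in PV-tdTomato (adjusted p = 0.973). Without those 6 arrays both region differences were -0.78, with an SE of 0.13 in PVCre (adjusted p = 0.0178) and 0.15 in PV-tdTomato (adjusted p = 0.0256).

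Markers of oligodendrocyte precursors moved with Erbb3. All 7 tested were lower in PVCre in both regions, with means over the list of 6.96 to 7.37 in PVCre striatum and 7.35 to 8.47 in PVCre cortex. In PV-tdTomato the list averaged 9.40, 9.15, 13.24 and 12.43 in striatum and 10.12, 10.40, 12.77 and 13.26 in cortex, highest in the arrays highest in Erbb3. Mature oligodendrocyte markers, with the means given for Fgfr2, split like Erbb3 within each line: they were lower in PVCre striatum than in PVCre cortex, and lower in replicates 1 and 2 of PV-tdTomato than in 3 and 4. Between the lines they went the other way, with 4 of 11 higher in PVCre striatum, 7 of 11 higher in PVCre cortex and 0 lower in either. The part of these cells in the Erbb3 values was not tested.

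Erbb4, the main neuregulin receptor of cortical parvalbumin interneurons, was far above background in every array. Its levels were 12.36, 13.15, 14.18 and 14.16 in PVCre striatum and 12.84, 12.46, 14.11 and 12.49 in PVCre cortex. In PV-tdTomato they were 14.72, 14.61, 13.76 and 13.90 in striatum and 15.10, 15.05, 13.61 and 13.73 in cortex. All 4 groups overlapped their neighbours in order, and the 4 highest arrays were replicates 1 and 2 of the PV-tdTomato groups, the ones of that line high in Pvalb. Of the PVCre arrays, cortex replicate 3, with Pvalb at 12.48, was at 14.11. Striatum replicate 1, with Pvalb at 10.2, was the lowest of all 16 arrays, at 12.36. Erbb4 averaged 13.46 ± 0.88 (SD, n = 4) in PVCre striatum and 12.98 ± 0.78 in PVCre cortex, and 14.25 ± 0.49 in PV-tdTomato striatum and 14.37 ± 0.81 in PV-tdTomato cortex, the same order from the top as Fgfr1.

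In cortex Erbb4 was lower in PVCre, at -1.40 ± 0.49 (SE, adjusted p = 0.0272), with overlapping groups, and -1.18 relative to the median of all genes. The call was lost without PVCre cortex replicate 1, 2 or 4 or PV-tdTomato cortex replicate 1 or 2 (adjusted p of 0.0575 to 0.0838), and without the 6 arrays lowest in Pvalb (-1.60 ± 0.61, adjusted p = 0.0591). In striatum the difference was -0.79 ± 0.49 (adjusted p = 0.193). Striatum minus cortex was 0.48 ± 0.49 in PVCre (95% interval -0.57 to 1.54, adjusted p = 0.685) and -0.13 ± 0.49 in PV-tdTomato (95% interval -1.18 to 0.93, adjusted p = 0.995). The 10 parvalbumin and GABAergic interneuron markers moved with Erbb4: they averaged 8.98, 7.21, 10.57 and 6.50 in PVCre cortex and 11.33, 10.85, 9.06 and 9.19 in PV-tdTomato cortex. Of these markers, 5 of 10 were lower in PVCre cortex and 3 of 10 in PVCre striatum, against 34.4% and 35.0% of all tested genes. The striatal count thus does not exceed that of all genes. The part of these markers in the Erbb4 values was not tested.

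**Figure D2:**
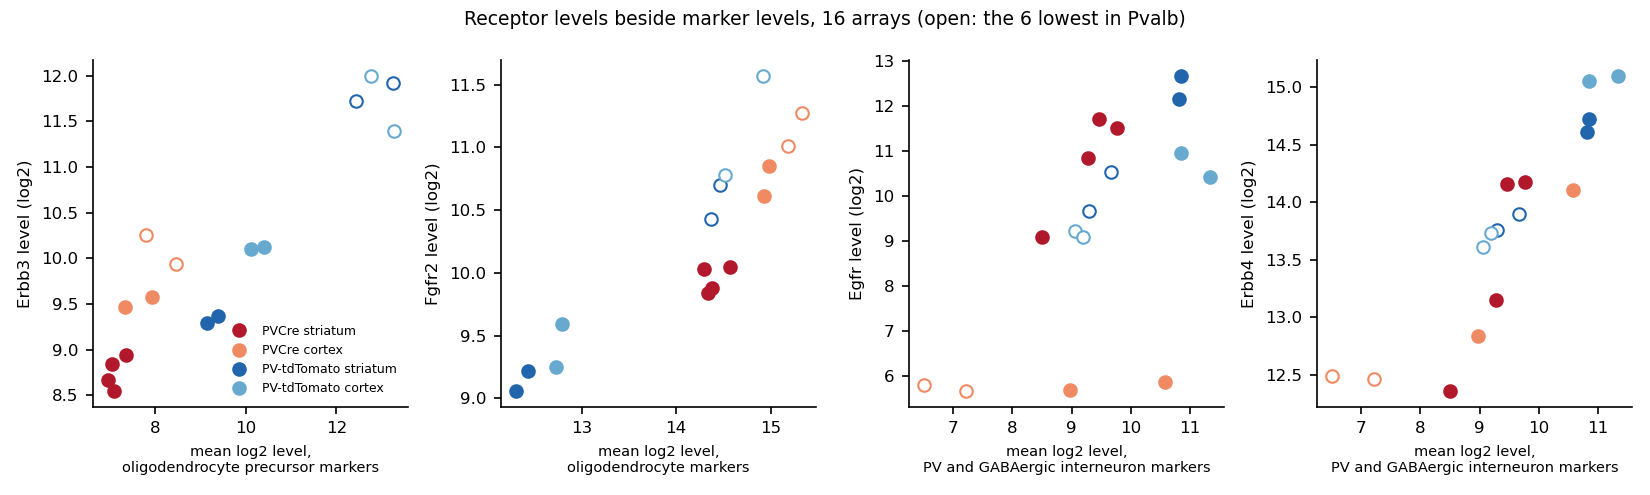
Level of Erbb3, Fgfr2, Egfr and Erbb4 (log2, y axes) against the mean log2 level of a marker list in the same array (x axes), 1 point per array, coloured by group; open points are the 6 arrays lowest in Pvalb. Erbb3 is highest where precursor markers are at 12.43 to 13.26, and Egfr stays at 5.66 to 5.85 in PVCre cortex while the interneuron markers there range from 6.50 to 10.57.

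Of the 6 receptors tested, 2 were higher and 0 lower in PVCre striatum than in PVCre cortex, where 2.85% of all genes were called higher and 1.04% lower. In PV-tdTomato 0 of 6 were called by limma in either direction, against 1.73% of all genes higher and 0.590% lower, and 1 of 6, Fgfr1, had an unadjusted p under 0.05. For the interaction 1 of 6 was called, in the positive direction, against 0.146% of all genes in that direction and 0.0488% in the other. Between the lines, 0 receptors were higher and 2 lower in PVCre striatum, where 18.3% of all genes were higher and 35.0% lower. In cortex 0 were higher and 4 lower, against 19.2% and 34.4% of all genes. Shares of receptors lower in PVCre are to be read against these large shares of all genes. The median differences of the 6 receptors between the lines were -0.64 in striatum and -1.25 in cortex, against -0.22 over all genes in each. Among all genes called, the share higher in PVCre was 34.4% in striatum and 35.8% in cortex, and 49.6% and 52.3% after quantile normalization. Under that scaling 1 receptor was called lower in striatum and 4 in cortex. Of all genes, 4906 and 4874 were called lower under it, against 7182 and 7041 in the main fit.

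**Figure D3:**
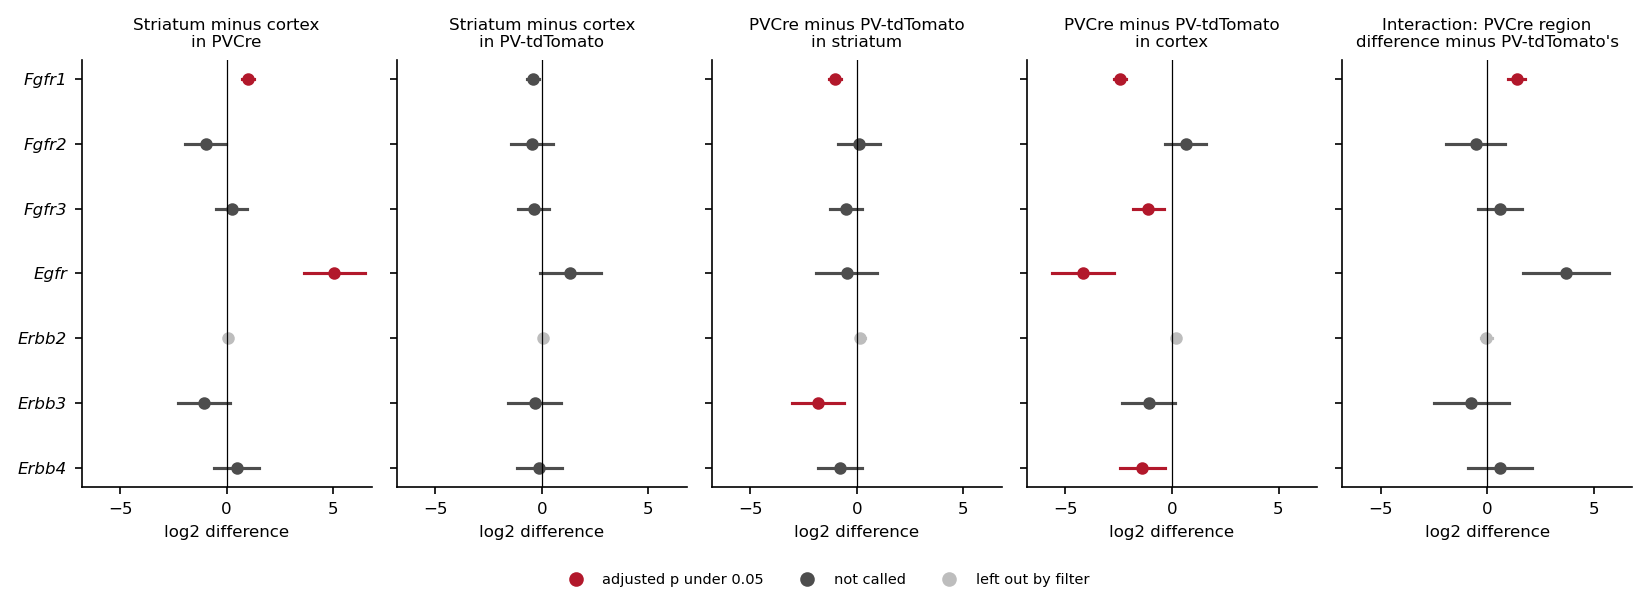
Log2 difference of each receptor gene in the 5 comparisons (x axes), as points with 95% intervals; red marks an adjusted p under 0.05 and pale grey Erbb2, which the filter left out. Egfr at 5.04 and Fgfr1 at 1.00 are called for region in PVCre, and Fgfr1 at 1.39 is the receptor called for the interaction.

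Other genes followed the array pattern of the widest-ranging receptors. Likeness was measured as the mean absolute difference over the 16 arrays after each gene's own mean was subtracted, for receptors with an SD of at least 1 over the arrays. The receptors themselves, predicted genes, Rik clones, microRNAs and similar symbols were left out of the genes compared and of the medians. Egfr was most like Lgi1, a secreted synaptic protein gene, at 0.38, then Hapln1, a link protein of perineuronal nets, at 0.47, and Galnt14, which starts O-linked glycans, at 0.48, where the median over the genes compared was 1.94. Lgi1 averaged 14.02 ± 1.07 (SD, n = 4) in PVCre striatum and 8.87 ± 1.16 in PVCre cortex, so its PVCre cortical level, unlike that of Egfr, was above background. Among the genes most like Erbb3 were Llgl1, a cell polarity gene, at 0.18, and Cilk1, a kinase gene of cilia, at 0.19, where the median was 0.95. Llgl1 averaged 7.40 ± 0.17 in PVCre striatum and 8.59 ± 0.42 in PVCre cortex, and 9.20 ± 1.16 and 9.66 ± 0.85 in PV-tdTomato striatum and cortex.

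The ligands, partners and effectors of these receptors were followed in 8 lists with 72 tested genes in all. For region in PVCre, limma called 2 of the 72, where 16 had an unadjusted p under 0.05. Of all tested genes 2.85% were called higher and 1.04% lower there. For region in PV-tdTomato 0 were called and 7 had an unadjusted p under 0.05, against 1.73% of all genes called higher and 0.590% lower. For the interaction 0 were called and 9 had such a p, against 0.146% and 0.0488% of all genes called. Between the lines 39 were called in striatum and 45 in cortex. Of all tested genes 18.3% were higher and 35.0% lower in PVCre striatum, and 19.2% and 34.4% in PVCre cortex. The counts of each list below are to be read against these shares.

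Of 7 relatives and partners of the Fgf receptors, 4 were tested, and 1 in striatum and 3 in cortex were lower in PVCre. Flrt1, a membrane protein of the family that binds Fgf receptors, averaged 7.06 ± 0.06 (SD, n = 4) in PVCre striatum and 9.51 ± 0.59 in PV-tdTomato striatum, a difference of -2.44 ± 0.25 (SE, adjusted p = 3.01e-06). In cortex it was at 6.84 ± 0.39 in PVCre and 9.90 ± 0.18 in PV-tdTomato, a difference of -3.06 ± 0.25 (adjusted p = 5.62e-07). Its relatives Flrt2 and Flrt3 were lower in PVCre cortex, at -2.15 ± 0.42 and -1.11 ± 0.28.

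Secreted Fgf ligands, by contrast, included genes higher in PVCre. Of 17 measured, 6 were tested, with 3 higher and 1 lower in striatum and 3 higher and 0 lower in cortex. Fgf18, a ligand of Fgfr3 among others, was at 8.19 ± 0.19 in PVCre striatum and 7.26 ± 0.60 in PV-tdTomato striatum (difference 0.94 ± 0.23, adjusted p = 0.00372), and was higher in PVCre cortex by 0.81 ± 0.23. Its striatal difference without the 6 arrays lowest in Pvalb was 0.43 (adjusted p = 0.0358). Fgf1, which binds all Fgf receptors, was higher in PVCre striatum by 0.56 ± 0.19, a call lost without those 6 arrays (0.28, adjusted p = 0.19), while quantile normalization gave 1.03. Fgf7, whose call in cortex was also lost without them (0.36, adjusted p = 0.397), was at 6.60 ± 0.71 in PVCre cortex and at 5.83 ± 0.10, within background, in PV-tdTomato cortex, or at least 1.42-fold higher in PVCre (adjusted p = 0.0324). Fgf5, called lower in striatum, and Fgf22, called higher in cortex, lay within background in every group mean, so no size is given.

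The intracellular Fgf homologous factors, known as partners of sodium channels inside the cell, were lower in PVCre, 3 of 3 in each region. Fgf11 averaged 6.90 ± 0.22 in PVCre striatum and 9.66 ± 0.25 in PV-tdTomato striatum, and 7.30 ± 0.85 in PVCre cortex and 10.86 ± 1.03 in PV-tdTomato cortex. The differences were -2.76 ± 0.45 (adjusted p = 0.000166) and -3.56 ± 0.45 (adjusted p = 2.13e-05). Fgf13 was at -0.92 ± 0.26 and -2.08 ± 0.26, and Fgf14 at -1.52 ± 0.56 and -2.44 ± 0.56, in striatum and cortex, with the striatal call of Fgf14 lost after quantile normalization (adjusted p = 0.161).

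Ligands of the ErbB receptors moved in both directions. Of 10 measured, 6 were tested, with 1 higher and 2 lower in PVCre striatum, and 0 higher and 2 lower in PVCre cortex. Hbegf, which encodes heparin-binding EGF, a ligand of Egfr and Erbb4, averaged 9.75 ± 1.29 in PVCre striatum and 7.37 ± 0.29 in PV-tdTomato striatum, a difference of 2.38 ± 0.52 (adjusted p = 0.00153). In cortex it was at 8.44 ± 0.86 in PVCre and 7.28 ± 0.22 in PV-tdTomato, with a difference of 1.16 ± 0.52 (adjusted p = 0.0733). Nrg1, a neuregulin that binds Erbb3 and Erbb4, was at 6.86 ± 0.26 in PVCre striatum and 7.88 ± 0.18 in PV-tdTomato striatum, and 6.36 ± 0.31 in PVCre cortex and 7.48 ± 0.29 in PV-tdTomato cortex. These were differences of -1.02 ± 0.18 (adjusted p = 0.000373) and -1.12 ± 0.18 (adjusted p = 0.00018). Nrg2 was lower, at -0.50 ± 0.14, a striatal call lost after quantile normalization (adjusted p = 0.107), and at -0.88 ± 0.14 in cortex.

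Proteases and scaffold partners of the ErbB receptors had 1 of 9 higher and 4 of 9 lower in PVCre in each region. Dlg4, which encodes the postsynaptic scaffold PSD-95, a binding partner of Erbb4, averaged 7.64 ± 0.30 in PVCre striatum and 10.03 ± 0.30 in PV-tdTomato striatum, a difference of -2.38 ± 0.34 (adjusted p = 4.8e-05). In cortex it differed by -2.28 ± 0.34 (adjusted p = 7.21e-05). Psenen, a subunit of gamma-secretase, the complex that cuts Erbb4 within the membrane, was higher in PVCre cortex by 1.17 ± 0.22. Bace1 and Ncstn, at -1.38 ± 0.30 and -1.13 ± 0.24 in striatum, and Adam10, at -1.17 ± 0.38 in cortex, lost their calls after quantile normalization, at -0.84, -0.58 and -0.58.

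Adaptors and relay kinases held both region calls of the lists, in PVCre, where 2.85% of all genes were called higher and 1.04% lower. In PVCre 0 of 21 were higher and 2 lower in striatum than in cortex: Grb2, the adaptor that links receptors to Ras, at -0.77 ± 0.14 (adjusted p = 0.00595), and Map2k1, the kinase MEK1, at -0.48 ± 0.12 (adjusted p = 0.0328). Both calls were lost without the 6 arrays lowest in Pvalb, while the differences stayed close in size, at -0.74 (adjusted p = 0.0583) and -0.41 (adjusted p = 0.222). The call of Map2k1 was also lost after quantile normalization (-0.55, adjusted p = 0.0552). Between the lines 0 were higher in PVCre, and 13 of 21 in striatum and 14 of 21 in cortex were lower, with median differences of -0.79 and -0.61. Pik3r2, a regulatory subunit of PI3 kinase, was lower, at -1.74 ± 0.17 in striatum and -1.85 ± 0.17 in cortex. Grb2 and Map2k1 were lower in PVCre striatum, at -1.44 ± 0.14 and -1.29 ± 0.12, and the adaptors Shc3 and Gab2 in PVCre cortex, at -2.29 ± 0.43 and -1.14 ± 0.31. After quantile normalization Grb2 and Map2k1 were at -0.88 and -0.73 and Gab2 at -0.74, all still called.

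Among inhibitors that limit receptor signalling, 5 of 17 in PVCre striatum and 9 of 17 in PVCre cortex were lower than in PV-tdTomato. Of all tested genes 35.0% and 34.4% were lower, so the striatal count does not exceed that of all genes. In either region 0 inhibitors were higher, against 18.3% and 19.2% of all genes. Rnf41, a ubiquitin ligase that acts on Erbb3, averaged 8.10 ± 0.20 in PVCre striatum and 9.59 ± 0.23 in PV-tdTomato striatum, a difference of -1.48 ± 0.23 (adjusted p = 0.000125), and differed by -1.70 ± 0.23 in cortex. Lrig2, of a family of membrane proteins that bind ErbB receptors, was lower in striatum, at -0.94 ± 0.12. After quantile normalization these striatal differences were -0.97 for Rnf41 and -0.52 for Lrig2, both still called. Spred2, an inhibitor of Ras signalling, was lower there, at -1.04 ± 0.42, a call lost after quantile normalization (-0.57, adjusted p = 0.247) or centring of the arrays (adjusted p = 0.05), and was at -1.64 without the 6 arrays lowest in Pvalb. Spry4, a Sprouty inhibitor, averaged 5.46 ± 0.27 in PVCre cortex, within background, and 7.15 ± 0.77 in PV-tdTomato cortex, or at least 2.06-fold lower in PVCre (adjusted p = 0.000482). Its measured difference was -1.68, and -0.85 without the 6 arrays lowest in Pvalb. Dusp6, the phosphatase of ERK, was lower in cortex, at -2.33 ± 0.64 (adjusted p = 0.00674) but at -0.21 without the 6 arrays lowest in Pvalb (adjusted p = 0.56).

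Genes that the pathway induces moved in both directions. Of 6 tested, 4 were higher and 1 lower in PVCre striatum, and 4 higher and 2 lower in PVCre cortex. Ier2, an immediate early gene, averaged 9.36 ± 0.38 in PVCre striatum and 6.45 ± 0.16 in PV-tdTomato striatum, a difference of 2.91 ± 0.27 (adjusted p = 1.39e-06), and differed by 3.11 ± 0.27 in cortex. The early response transcription factor genes Fos and Egr1 were higher in PVCre by 2.24 ± 0.39 and 1.51 ± 0.15 in striatum and by 1.83 ± 0.39 and 1.54 ± 0.15 in cortex. The genes called lower in PVCre, named after their values were seen, were Etv4 and Etv5, ETS transcription factor genes known as Fgf targets. Etv5 averaged 7.17 ± 0.46 in PVCre cortex and 8.44 ± 0.36 in PV-tdTomato cortex, a difference of -1.27 ± 0.29 (adjusted p = 0.0023). Etv4 was called lower in both regions, and averaged 5.35 ± 0.13 in PVCre cortex, within background, and 6.36 ± 0.49 in PV-tdTomato cortex. Many other signals induce the early response genes, and microglial markers, which averaged 7.40 to 9.64 in PVCre and 5.33 to 5.86 in PV-tdTomato arrays, were higher in PVCre in 11 of 11 cases in each region. Their part in these values was not tested.

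**Figure D4:**
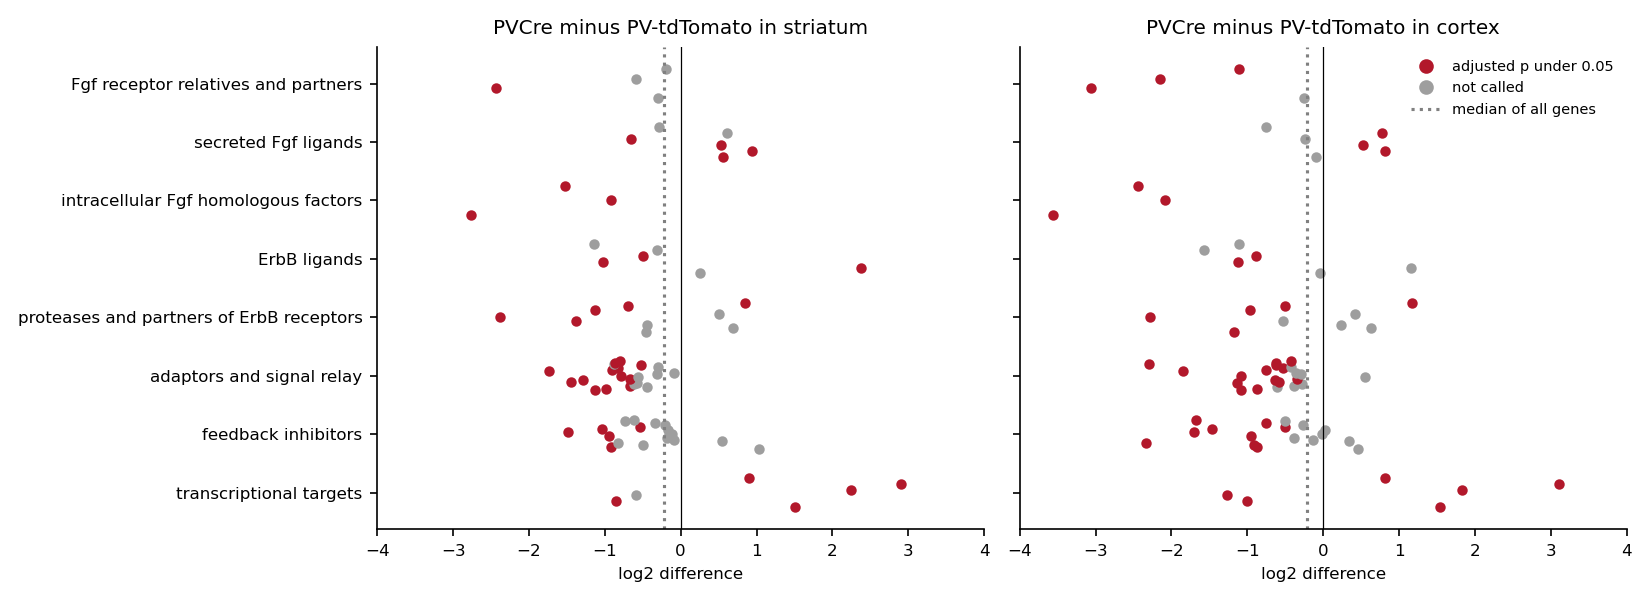
Log2 difference of PVCre minus PV-tdTomato (x axes) for each tested gene of 8 pathway lists (rows), in striatum and in cortex; red points have an adjusted p under 0.05 and the dotted line is the median of all genes, -0.22. All 3 intracellular Fgf homologous factors lie left of the line in both regions, and Ier2, at 2.91 and 3.11, lies farthest to the right.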

How the data were processed

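Cells from 16 pools were measured on Affymetrix mouse transcriptome arrays (5 ng RNA amplified, per the labels' protocols). The authors deposited log2 values made by RMA; per the submitters' processing notes the software was Affymetrix Expression Console, whose version is not given in the sources used here. Arrays have no read depth, so their number limits the precision.

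Of 72688 probe sets, 6732 were controls and 65956 transcript clusters. Of these clusters, 31216 were annotated with 1 gene, 1534 with several and 33206 with none listed. The first kind was used, and for 364 genes with several clusters the highest mean. The lowest 33.3% of gene means were left out and 20495 genes tested with limma 3.58.1 (R 4.3.3; 1 mean per group, 16 arrays in 1 fit, Benjamini-Hochberg over all tested genes, threshold 0.05), checked on simulated data. Errors are SD for levels and SE for differences. Tables and plots used Python 3.11.15. Whether both regions of a number came from the same mice is not stated, and p-values measure the spread between pools.

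Members, lists and tests were chosen with earlier results of these data known. All members were named; each pathway list gave at most 3 called genes per comparison, those of the largest difference, and each receptor with an SD of at least 1 its 3 most similar genes, of which 1 is not reported here. Same-numbered PV-tdTomato arrays of both regions deviated together (r = 0.58 to 0.76 in all 4 pairs), although replicates 2 and 4 correlated best with numbers 1 and 3 of the other region. The other comparisons did not pass this check. The main fit was unpaired, and only an alternative fit took the replicate number as a block. For regions and the interaction this block was the number within a line, and for lines the number within a region. Alternatives were other filters, cluster choice, scalings, variance priors, array weights, fewer arrays, the block and Xist as covariate. Leaving out replicate 3 of both PV-tdTomato groups was chosen after seeing the data.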

Additional observations from a re-analysis of the deposited data

Results flagged for a closer look

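The region difference of Fgfr1 differed between the lines, by a test of the difference itself: 1.39 ± 0.18 (SE) on the log2 scale, PVCre minus PV-tdTomato (limma interaction, adjusted p = 0.00641). In PVCre all 4 striatal arrays (7.79 to 8.14) were above all 4 cortical arrays (6.87 to 7.04), and in PV-tdTomato the striatal arrays (8.81 to 9.18) overlapped the cortical ones (9.11 to 9.69). No array of any receptor stood far enough from the other 3 of its group to pass Dixon's test.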

How the results depend on the processing

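Over the alternatives, the members' differences kept direction and side of the threshold in 796 cases, gained a call in 15, lost it in 12 and changed sign in 16. Many of the 796 could not change direction. Each receptor had a single cluster, so the cluster choice, the filters and the variance priors left its difference unchanged. Leaving out an array outside the groups compared also left it unchanged. The Erbb2 cases set the fit without a filter against itself. With 4 arrays a group, differences under the pools' spread were not detectable. Causes of the changes below were not tested.

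Genes called in the PVCre region comparison, 797 in all, numbered 2483 with array weights and 2093 with the replicate block, under which, as with only the arrays compared or without the 6 arrays lowest in Pvalb, 4 receptors were called (the added ones being Fgfr2 and Erbb3, with the block at adjusted p = 0.0149 and 0.0128; the labels number the PVCre cortex arrays in 2 ways that differ, and r by title number was -0.29 to 0.69 there). Leaving out single arrays gave 512 to 827. In PV-tdTomato, 476 genes became 307 with a stricter filter on low levels, 1594 with array weights (1 receptor, Egfr at 2.47), 286 with only the arrays compared and 1044 without the 6 arrays (1 receptor, Erbb3). The paired fit with the block called 579 genes and 0 receptors; it changed no receptor's call there. In striatum between lines, 1 receptor was called after quantile normalization, with array weights (Erbb3 at adjusted p = 0.0517) and in leave-one-out fits without PV-tdTomato replicate 3 or 4. For the interaction, 40 genes became 131 with array weights, 128 with the block (2 receptors, Egfr added at adjusted p = 0.0341), 154 without the 6 arrays and 21 to 69 leaving out single arrays. The Erbb4 call in cortex was also lost with Xist as covariate (adjusted p = 0.0623). It was lost too with the block (adjusted p = 0.084), but for this comparison the block joins arrays of different genotypes by number alone. Those arrays did not pass the check for pairs (r = -0.64 to 0.5), so that fit is no paired check.

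Signs turned as follows. Without the 6 arrays, Erbb4 was at -0.02 in the PVCre region comparison and the Erbb3 interaction at 0.00. With array weights, Erbb4 was at 0.49 in the PV-tdTomato region comparison, and the Fgfr2 and Erbb3 interactions at 0.30 and 0.53. In striatum between lines, Egfr was at 0.04 after quantile normalization and Fgfr2 at -0.14 with Xist as covariate. Leaving out single arrays gave -0.78 to 0.10 for Erbb3 and -0.38 to 0.12 for Erbb4 in the PV-tdTomato region comparison, and -1.01 to 0.09 for Egfr and -0.17 to 0.38 for Fgfr2 in striatum between lines. None of these was called.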
